A study of Mus musculus with 6 samples.

Results

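The atrial cardiomyocyte markers described here are Nppa, Myl4, Myl7, Sln, Bmp10, Kcnj3, Kcnj5, Gja5 and Dkk3. These 9 genes were named as markers and not ranked by a measured value, but with earlier results of these data known. Their members on the array are all probe sets that the platform annotation gives exactly 1 symbol, that symbol being 1 of the 9. This gave 16 probe sets of the 45037 that are not controls, and every gene had at least 1. RNA of mouse heart tissue was measured on Affymetrix arrays, 1 array for each of 6 samples, called hearts here. A group of 3 hearts came from Cav1 knockout males (Cav1KO) and the other 3 from wild-type males (WT), all 5 to 6 months old and fasted for 6 hours. Caveolin-1, the product of Cav1, coats the small pits of the cell membrane called caveolae. The labels give no strain, no description of the deleted part of the gene and no statement on which chambers were taken, and they do not state that the samples are separate animals. The p-values therefore reflect how much these samples varied, which may be technical.

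The atria and ventricles of the mouse heart use partly different sets of muscle proteins. Atrial muscle cells store natriuretic peptide in granules, carry their own pair of myosin light chains, and have potassium channels through which acetylcholine slows the heart. In tissue that holds both chambers, RNA of such genes comes mostly from the atrial part, so the level in bulk RNA depends on how much atrium a sample holds as well as on the level per cell. Fewer cells of a type and less RNA per cell cannot be told apart in bulk samples.

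Values are deposited intensities on a linear scale, given heart by heart, and log2 differences are Cav1KO minus WT on the scale of log2(intensity + 16) after quantile normalisation, which understates the change of low genes. Tests were run with limma over the 22519 probe sets in the upper 50% by mean, with Benjamini-Hochberg adjustment over all of them and a threshold of 0.05. The labels were checked with Cav1, which stood at 108 ± 10.3 in Cav1KO hearts and 3958 ± 268 in WT hearts (SD, n = 3 each). That is 2.74% of the WT level, and the log2 difference was -5.02 (limma adjusted p = 1.65e-09). Of all probe sets tested 714 passed, 3.17%, of which 531 were higher and 183 lower in Cav1KO. That split of 74.4% higher became 90.9% with the intensities as deposited and 93.5% with each array centred on its median. WT replicate 1 stood apart in scale, with a trimmed mean of 154.6, against 163.1 to 167.6 in the other 5 arrays.

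The stretches before the start sites are printed for 4 members, Nppa, Myl4, Myl7 and Bmp10, the gene of the atrial hormone, both light chain genes, the pair with the highest Pearson correlation over the hearts, and the gene of the secreted ligand. They come from a set of RefSeq promoter windows (mouse build GRCm38.p6). That set held 7 of the 9 genes and no window for Sln or Dkk3. Each stretch is the 250 bases before the listed start, 5′ to 3′ in the direction of the gene. Capitals mark letters that match a motif searched on both strands. The motifs were the TATA box as TATAAA, the core site of GATA factors as GATAA, that of NKX2-5 as AAGTG and that of T-box factors as GGTGTG, besides the MEF2 box and the CArG box of serum response factor. The windows are chr4:148000472-148000721 (plus strand) for Nppa, chr11:104550413-104550662 (plus strand) for Myl4, chr11:5898783-5899032 (minus strand) for Myl7 and chr6:87428744-87428993 (plus strand) for Bmp10.
Nppa: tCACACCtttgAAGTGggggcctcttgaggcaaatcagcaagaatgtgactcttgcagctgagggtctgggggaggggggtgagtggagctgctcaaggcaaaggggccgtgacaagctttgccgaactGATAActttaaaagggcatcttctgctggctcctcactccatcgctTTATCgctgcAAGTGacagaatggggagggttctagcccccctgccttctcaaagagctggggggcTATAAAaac
Myl4: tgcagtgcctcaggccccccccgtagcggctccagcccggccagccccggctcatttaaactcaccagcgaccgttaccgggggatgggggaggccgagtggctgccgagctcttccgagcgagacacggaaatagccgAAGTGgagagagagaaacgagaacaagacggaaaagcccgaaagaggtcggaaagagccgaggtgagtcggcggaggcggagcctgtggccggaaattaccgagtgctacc
Myl7: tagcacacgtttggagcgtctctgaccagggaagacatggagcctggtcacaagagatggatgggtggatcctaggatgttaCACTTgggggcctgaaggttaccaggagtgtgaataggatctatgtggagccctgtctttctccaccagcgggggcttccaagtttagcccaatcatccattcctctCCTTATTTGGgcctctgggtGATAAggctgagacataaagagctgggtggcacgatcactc
Bmp10: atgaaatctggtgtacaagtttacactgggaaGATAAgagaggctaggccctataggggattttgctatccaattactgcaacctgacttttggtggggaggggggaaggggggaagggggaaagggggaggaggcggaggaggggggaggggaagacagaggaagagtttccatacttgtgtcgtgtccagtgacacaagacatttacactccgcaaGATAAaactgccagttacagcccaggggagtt

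Of these windows, that of Nppa held the most kinds of motif. It had TATAAA at bases 9 to 4 before the start, GATAA at 121 to 117 and, on the other strand, at 75 to 71, AAGTG at 239 to 235 and at 65 to 61, and GGTGTG on the other strand at 249 to 244. Myl7 held a CArG box at bases 61 to 52 before the start, GATAA at 41 to 37 and AAGTG on the other strand. Bmp10 held GATAA at 218 to 214 and at 32 to 28, and Myl4 held only AAGTG. Among the 32851 promoter windows of the same length, 12.4% held TATAAA, 22.6% GATAA, 40.7% AAGTG, 16.3% GGTGTG, 2.92% a MEF2 box and 1.47% a CArG box. Of the 7 windows of the markers, 1 held TATAAA, 3 GATAA, 5 AAGTG, 2 GGTGTG and 1 a CArG box, and none a MEF2 box. A match is a match of letters and shows no binding.

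No atrial marker passed the test between Cav1KO and WT hearts. Of the 16 probe sets 13 were bright enough to be tested, 0 of them passed at the adjusted threshold (limma), and 4 had an unadjusted p under 0.05. Over all probe sets tested, 3.17% passed, 2.36% as higher and 0.813% as lower, and 4507 had an unadjusted p under 0.05. Of the 13, 12 had a negative difference, against 53.0% of all probe sets tested, and the number was 11, against 39.6%, with the intensities as deposited and 10, against 34.1%, with each array centred on its median. Taking the brightest probe set of each gene, the 8 tested genes had a median log2 difference of -0.13, against -0.014 over the 11486 genes tested. With each array centred on its median it was -0.083, against 0.051 over all probe sets tested. Without Cav1KO replicate 2 the median was -0.049, and without WT replicate 3 it was -0.084. Members below the filter on low values were the single probe set of Gja5 and weaker ones of Sln and Kcnj3.

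**Figure D1:**
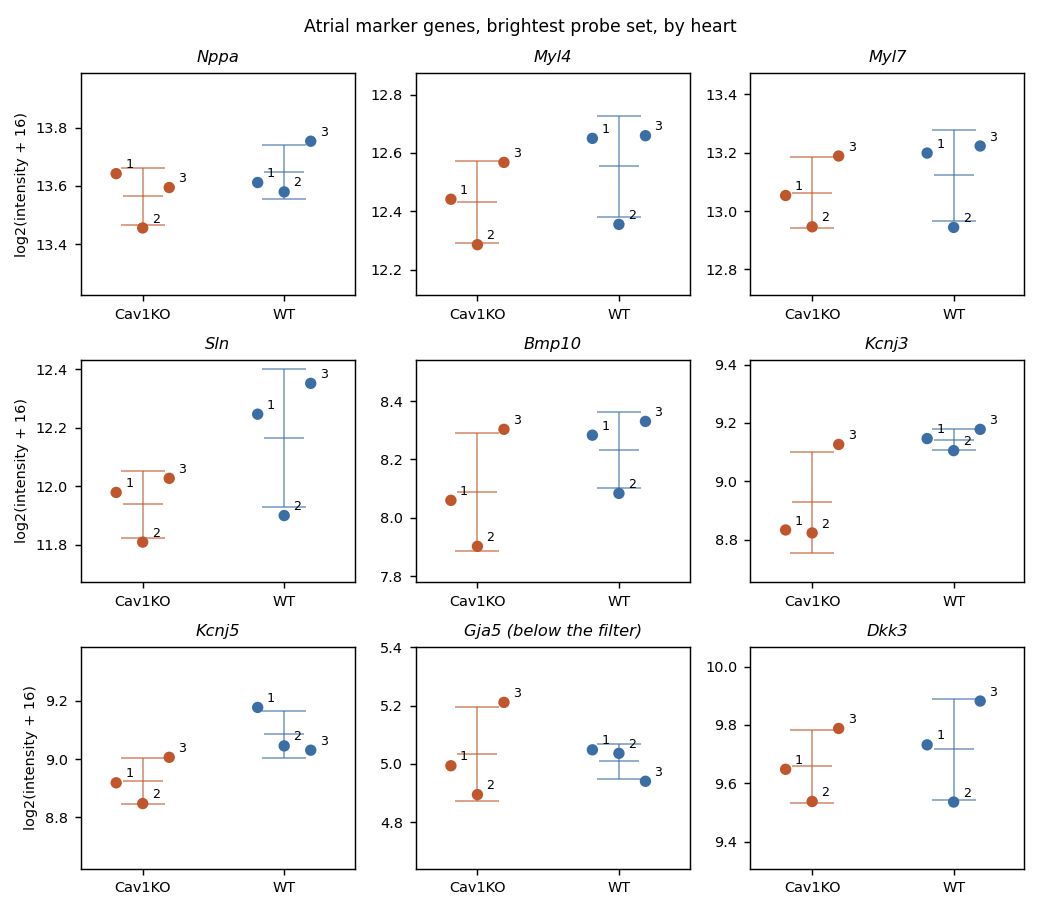
Level of the brightest probe set of each of the 9 atrial marker genes in each heart, as log2(intensity + 16) after quantile normalisation, with Cav1KO left of WT. Points are hearts with their replicate number, bars the mean ± SD of 3 hearts, every panel spans the same height on the log2 axis, and replicate 2 is the lowest heart within each group for 7 of the 8 tested genes, all but Kcnj5.

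Nppa encodes the precursor of atrial natriuretic peptide, the hormone that makes the kidney release salt and water. Its probe set, 1456062_at, stood at 12566, 11238 and 12249 in Cav1KO hearts and at 12680, 12398 and 13707 in WT hearts. The groups overlapped, with Cav1KO replicate 2 lowest and WT replicate 3 highest. The log2 difference was -0.084 (95% interval -0.21 to 0.043, limma adjusted p = 0.421).

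The myosin light chains of the atrium were next. Myl7 encodes the regulatory light chain of atrial myosin, and its probe set 1449071_at gave 8328, 7814 and 9290 in Cav1KO hearts and 9433, 7893 and 9717 in WT hearts. Replicate 2 was the lowest of each group, at nearly the same level, and the log2 difference was -0.059 (95% interval -0.24 to 0.12, limma adjusted p = 0.697). Myl4 encodes the essential light chain of atrial myosin. Its brighter probe set, 1422580_at, gave 5573, 4991 and 6109 in Cav1KO hearts and 6371, 5247 and 6507 in WT hearts, with a log2 difference of -0.12 (95% interval -0.33 to 0.080, limma adjusted p = 0.459). In these intensities the hearts fell in the same order as for Myl7. After quantile normalisation Cav1KO replicate 2 was still lowest for Myl4, while WT replicate 2 was lowest for Myl7, at 12.944 against 12.946 in Cav1KO replicate 2. The weaker probe set of Myl4, 1457126_at, averaged 69.6 ± 2.38 in Cav1KO hearts and 82.4 ± 7.03 in WT hearts (SD, n = 3 each). There the groups did not overlap and the log2 difference was -0.22 (95% interval -0.40 to -0.045), but it did not pass (limma adjusted p = 0.169).

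Sln had the widest spread between hearts of the 8 tested genes. It encodes sarcolipin, a small membrane peptide that slows the calcium pump of the sarcoplasmic reticulum. Probe set 1420884_at gave 4041, 3568 and 4157 in Cav1KO hearts and 4780, 3831 and 5246 in WT hearts. WT replicate 2 lay below Cav1KO replicates 1 and 3, so the groups overlapped, and the range over the 6 hearts was 0.54 on the log2 scale. The log2 difference was -0.23 (95% interval -0.47 to 0.0098, limma adjusted p = 0.267). Without WT replicate 2 it was -0.36 and passed (limma adjusted p = 0.0341). The other probe set of Sln, 1420883_at, was below the filter and averaged 35.9 ± 5.39 in Cav1KO hearts and 43.4 ± 4.65 in WT hearts (SD, n = 3 each).

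Bmp10 encodes a ligand of the BMP family that atrial muscle secretes and that acts on the endothelium through the receptor ALK1. Its probe set 1421763_at gave 258, 231 and 304 in Cav1KO hearts and 270, 259 and 301 in WT hearts. Replicate 3 was the brightest of each group and the groups overlapped, and the log2 difference was -0.14 (95% interval -0.38 to 0.095, limma adjusted p = 0.462). Dkk3 encodes a secreted glycoprotein of the dickkopf family. It gave 804, 748 and 876 in Cav1KO hearts and 772, 735 and 930 in WT hearts at probe set 1417312_at. Its log2 difference of -0.059 (95% interval -0.27 to 0.15, limma adjusted p = 0.743) turned positive, to 0.017, with each array centred on its median. At the weaker probe set 1448669_at Dkk3 averaged 227 ± 28.1 in Cav1KO hearts and 223 ± 32.8 in WT hearts (SD, n = 3 each), and its log2 difference of -0.048 turned positive with both other scalings.

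Kcnj3 and Kcnj5 encode the subunits GIRK1 and GIRK4 of the potassium channel that opens when acetylcholine binds the muscarinic receptor of atrial muscle. The brightest probe set of Kcnj3, 1455374_at, gave 452, 454 and 550 in Cav1KO hearts and 507, 544 and 561 in WT hearts. Cav1KO replicates 1 and 2 lay below all WT hearts and Cav1KO replicate 3 lay among them. The log2 difference was -0.22 (95% interval -0.40 to -0.032, limma adjusted p = 0.190). At probe set 1421468_at Kcnj3 gave 212, 205 and 238 in Cav1KO hearts and 252, 257 and 257 in WT hearts. Here all Cav1KO hearts were below all WT hearts. The log2 difference was -0.29 (95% interval -0.46 to -0.12) and had the smallest p of all tested marker probe sets (limma, unadjusted p = 0.00387, adjusted p = 0.0803). Without Cav1KO replicate 3 both probe sets passed, at log2 differences of -0.31 (limma adjusted p = 0.0305) for 1455374_at and -0.36 (limma adjusted p = 0.0423) for 1421468_at. Probe set 1444025_at, averaged 328 ± 22.5 in Cav1KO hearts and 361 ± 72.3 in WT hearts (SD, n = 3 each), and WT replicate 1 was its lowest heart. Another, 1444336_at, was below the filter, at 8.65 to 10.1 in Cav1KO hearts and 10.1 to 12.7 in WT hearts.

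Kcnj5 differed between its probe sets. At 1441590_at it gave 481, 462 and 501 in Cav1KO hearts and 519, 523 and 506 in WT hearts, groups that did not overlap. The log2 difference was -0.16 (95% interval -0.30 to -0.019, limma adjusted p = 0.203). The weaker probe set 1421762_at averaged 90.7 ± 8.72 in Cav1KO hearts and 84.3 ± 4.36 in WT hearts (SD, n = 3 each), a log2 difference of 0.058 (95% interval -0.12 to 0.24, limma adjusted p = 0.707). It was the only tested probe set of the markers with a positive difference. Groups did not overlap at 3 of the 13 tested probe sets, all with Cav1KO below WT, and 26.3% of all probe sets tested had no overlap in either direction, 14.0% with Cav1KO below WT.

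Gja5 encodes connexin 40, the gap junction protein of atrial muscle that arterial endothelium and the conduction system also make. Its probe set 1422192_at was dim, at 15.5, 13.2 and 20.9 in Cav1KO hearts and 18.4, 16.5 and 14.9 in WT hearts, near percentile 26.5 of all probe sets. No WT heart was as bright as Cav1KO replicate 3. WT replicate 3, the brightest heart for 7 of the 8 tested markers after quantile normalisation, was the dimmest WT heart here. Gja5 was not tested, being below the filter on low values.

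**Figure D2:**
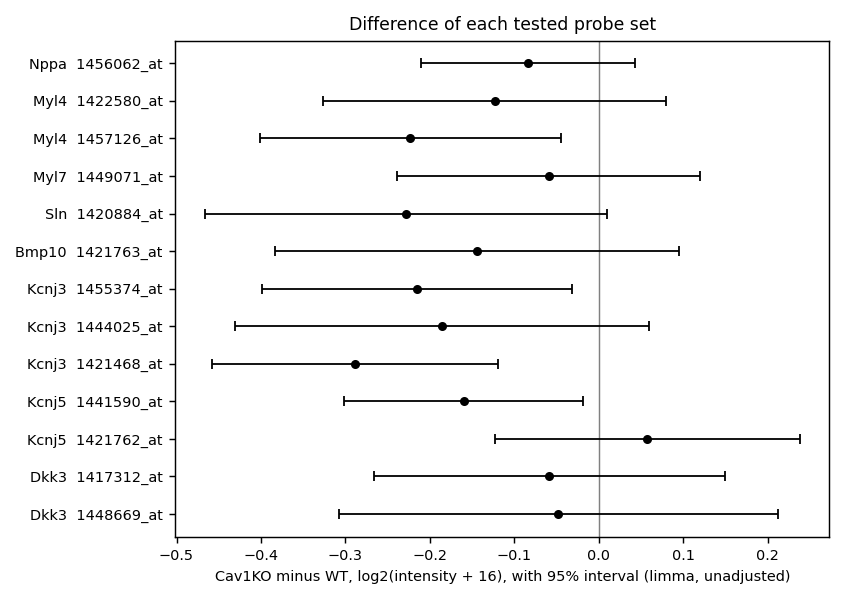
Log2 difference, Cav1KO minus WT, of each of the 13 tested probe sets of the atrial markers, on the horizontal axis, with its unadjusted 95% interval from limma. Of the 13 points 12 lie below 0, the intervals of 4 probe sets leave out 0, and none passed after adjustment over 22519 probe sets.

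The markers varied together from heart to heart, and the order of the hearts mixed the genotypes, with WT replicate 3 at its upper end. For each of the 8 tested genes the deviation of every heart from the mean of both groups was taken on the log2 scale at the brightest probe set. The median of these deviations was -0.063, -0.18 and 0.083 in Cav1KO hearts and 0.12, -0.11 and 0.16 in WT hearts. WT replicate 2 thus lay with Cav1KO replicates 1 and 2, and Cav1KO replicate 3 lay near the other WT hearts. This median spanned 0.26 within the Cav1KO group and 0.26 within the WT group, while the group means were -0.054 in Cav1KO and 0.055 in WT. The place of WT replicate 1, the array that stood apart in scale, depended on the scaling. Its median deviation was 0.041 with the intensities as deposited and 0.011 with each array centred on its median. Those of Cav1KO replicate 3 were 0.087 and 0.088, so with these scalings that heart ranked above WT replicate 1. After quantile normalisation WT replicate 3 was the highest heart for 7 of the 8 genes, all but Kcnj5. Cav1KO replicate 2 was the lowest for 6, with WT replicate 2 the lowest for Myl7 and Dkk3. In the deposited intensities Bmp10 was instead highest in Cav1KO replicate 3, and Myl7 lowest in Cav1KO replicate 2. Among tested probe sets of the markers, again after normalisation, WT replicate 3 was the highest heart at 9 of 13 and Cav1KO replicate 2 the lowest at 10 of 13. Over all probe sets tested the shares were 16.9% and 17.3%. Both held at 6 of 13, against 4.01%.

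All 28 pairs of the 8 genes had a Pearson correlation above 0 over the 6 hearts, from 0.43 to 0.98 with a median of 0.77. With the group means removed all 28 were still above 0, and the median was 0.70. The highest was that of both light chains, Myl4 and Myl7 (r = 0.98, exact permutation p = 0.00278, the smallest that 720 pairings gave, adjusted p = 0.0292 over the 28 pairs). Their Spearman's rho was 0.94 (exact permutation p = 0.0167), and r was 0.97 without the 2 hearts farthest from the median of Myl4. Also past an adjusted p of 0.05 for Pearson's r (exact permutation tests) were Myl4 with Sln (r = 0.94, p = 0.00417, rho = 1, r without the 2 farthest hearts 0.93), Myl7 with Dkk3 (r = 0.96, p = 0.00417, rho = 0.94, r without them 0.86) and Bmp10 with Kcnj3 (r = 0.87, p = 0.00278, rho = 0.94, r without them 0.71). None passed for Spearman's rho after adjustment (smallest adjusted exact p = 0.0667). Pairs with Nppa depended on the outermost hearts: r with Myl4 was 0.76 (exact permutation p = 0.0528) and 0.17 without the 2 farthest. Without the 2 hearts farthest from the median of Nppa, r turned negative with Bmp10 (-0.25), Kcnj5 (-0.39) and Kcnj3 (-0.81). Among pairs without Nppa, leaving out the 2 hearts farthest from the median of the first gene moved r both ways. It fell from 0.83 to 0.13 for Kcnj3 with Kcnj5 and from 0.73 to 0.42 for Myl4 with Kcnj3. It rose from 0.65 to 0.998 for Myl7 with Kcnj3 and from 0.63 to 0.87 for Kcnj3 with Dkk3. Over all 6 hearts the lowest r was that of Kcnj5 with Dkk3, 0.43 (exact permutation p = 0.411). All values of a heart come from 1 array, so the pairs share its RNA and its scale. The 28 pairs also share their 8 genes and are not independent. The share of positive pairs among all tested genes was not computed. With 3 hearts a group no correlation was computed for either group by itself.

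**Figure D3:**
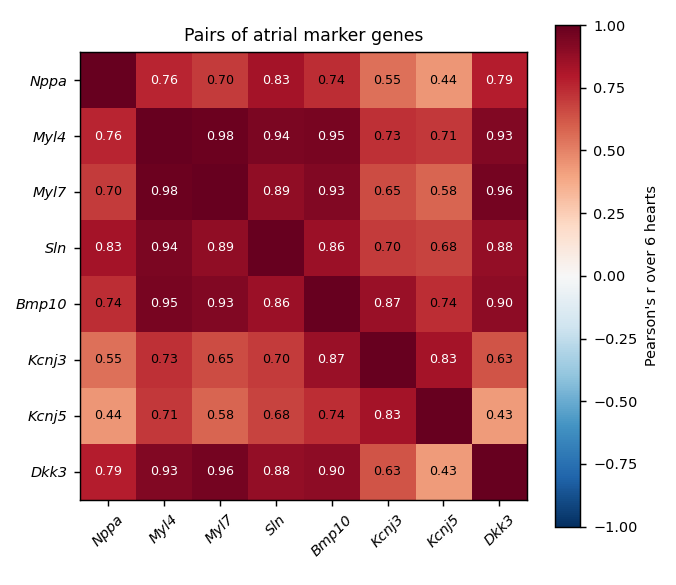
Pearson's r over the 6 hearts for each pair of the 8 tested atrial marker genes, at the brightest probe set of each gene, with red for positive and blue for negative values. All 28 pairs are positive, from 0.43 for Kcnj5 with Dkk3 to 0.98 for Myl4 with Myl7.

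Further genes known from atrial muscle followed a similar order of hearts, and none passed singly. Of 13 genes on that list 11 had a probe set of their own, 10 were tested, 0 passed in either direction (limma) and 8 had a negative difference, with a median log2 difference of -0.21. Stard10, a lipid transfer protein, stood at 1204, 1078 and 1308 in Cav1KO hearts and at 1372, 1195 and 1520 in WT hearts, which is the order of Sln. Kcnk3, the potassium channel TASK-1, was lower in each Cav1KO heart than in any WT heart at 829 ± 41.9 in Cav1KO and 928 ± 13.5 in WT (SD, n = 3 each), and did not pass (limma adjusted p = 0.0834). The same held for Pam, an enzyme of peptide amidation that is abundant in atrial granules (log2 difference -0.23, limma adjusted p = 0.131). Angpt1, an angiopoietin, stood at -0.19 and Fgf12, an intracellular partner of sodium channels, at -0.34 on the log2 scale, with limma adjusted p of 0.186 and 0.216. Kcna5, the channel of the ultrarapid potassium current, chosen here after its values were seen, ran the other way, with 395, 509 and 255 in Cav1KO hearts and 226, 377 and 264 in WT hearts. The median deviation of this list was -0.062, -0.17 and 0.020 in Cav1KO hearts and 0.19, -0.017 and 0.097 in WT hearts. After quantile normalisation Cav1KO replicate 2 was the lowest heart for 7 of its 10 tested genes.

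Genes of ventricular muscle and of muscle of both chambers were set beside the atrial markers. Of 10 tested ventricular genes 1 passed, Kcnip2, a subunit of the transient outward potassium channel, which fell. It stood at 871, 981 and 1005 in Cav1KO hearts and at 1192, 1270 and 1281 in WT hearts (log2 difference -0.43, SE 0.059, limma adjusted p = 0.00728), and a weaker probe set passed as well. Irx1, Irx3 and Irx2, transcription factors of the iroquois family, had log2 differences of -0.20, -0.32 and -0.19 that did not pass (limma adjusted p of 0.142, 0.170 and 0.274). Of the 10 ventricular genes 8 had a negative difference, as many as on the list of further atrial genes. The ventricular list's median log2 difference was -0.095. Its median deviation was -0.11, -0.028 and -0.0099 in Cav1KO hearts and 0.025, 0.049 and 0.024 in WT hearts. Of 10 genes used in both chambers none passed (limma), and 4 had a negative difference. Actc1, Tnnt2, Myh6 and Atp2a2 lay near the top of the scale, so neither an order of hearts nor a steady level can be read from them. Ryr2, Mybpc3 and Actn2 lay at levels like those of Myl4 and Myl7. Their ranges over the 6 hearts were 0.18, 0.11 and 0.096 on the log2 scale, against 0.37 for Myl4 and 0.28 for Myl7. Ttn, brighter than Ryr2, Mybpc3 and Actn2 but dimmer than Nppa, had a range of 0.21, against 0.30 for Nppa. Tnni3 and Tnnc1, on average brighter than Nppa, had ranges of 0.025 and 0.024. Myl2, the ventricular counterpart of Myl7, added after its values were seen, lay between 21908 and 22016 in Cav1KO hearts and between 21908 and 22289 in WT hearts. These levels are close to the highest intensity in the table, 22630.

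**Figure D4:**
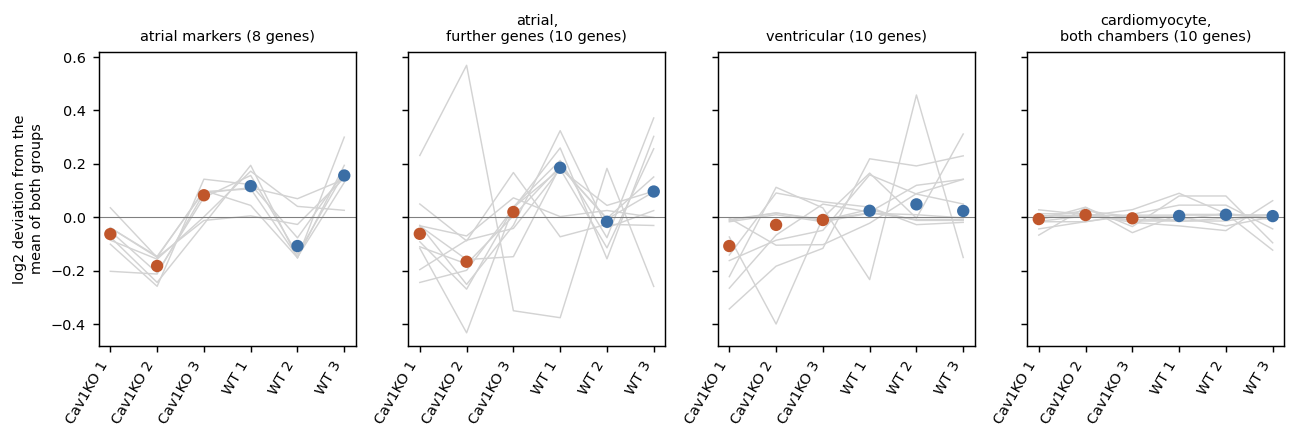
Deviation of each gene from the mean of both groups on the log2 scale, by heart, for the atrial markers, further atrial genes, ventricular genes and genes of muscle in both chambers. Grey lines join the 6 hearts of 1 gene and coloured points are the median over genes (Cav1KO left, WT right), which for the atrial markers runs from -0.18 in Cav1KO replicate 2 to 0.16 in WT replicate 3.

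Some genes that act on natriuretic peptides changed. Of 7 tested genes of that system 1 rose, 2 fell and 4 did not pass. The shares over all probe sets tested were 2.36% higher and 0.813% lower. The list was chosen with earlier results of these data known, so its count is no test of the system. Npr3, the receptor that clears natriuretic peptides from the blood, rose, with 452, 410 and 489 in Cav1KO hearts and 246, 280 and 303 in WT hearts (log2 difference 0.61, SE 0.083, limma adjusted p = 0.00675). Of its other probe sets 1450286_at passed as higher too, at 0.52, and 1448024_at did not, at 0.40. Corin, the protease that cuts the Nppa product into its active form, fell, with 2141, 2084 and 1898 in Cav1KO hearts and 2674, 2550 and 2430 in WT hearts (log2 difference -0.36, SE 0.060, limma adjusted p = 0.0164). It did not pass without a trend in the variance (limma adjusted p = 0.0551), without Cav1KO replicate 1 (0.0524) or without Cav1KO replicate 2 (0.0624). Ide, insulin-degrading enzyme, which also cuts atrial natriuretic peptide, fell by 0.62 on the log2 scale (limma adjusted p = 0.00109), and 4 of its 5 probe sets passed. Mme, the peptidase neprilysin, had a log2 difference of -0.36 that did not pass (limma adjusted p = 0.0921). Nppb, the gene of the B-type peptide, also added after its values were seen, averaged 3380 ± 294 in Cav1KO hearts and 3414 ± 594 in WT hearts (SD, n = 3 each). Its lowest heart was WT replicate 2 and its highest WT replicate 3.

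Partners and regulators of the markers did not pass. None of 9 cardiac transcription factors, 5 tested partners of the muscarinic potassium channel, 4 receptors of BMP10 and 7 other partners of single members passed (limma), with list medians of -0.024, 0.044, 0.080 and -0.082 on the log2 scale. Over all probe sets tested 3.17% passed. Rgs6, which shortens the channel's response to acetylcholine, had a log2 difference of -0.36 (limma adjusted p = 0.107). Eng, the endoglin co-receptor of BMP10, had 0.15 (limma adjusted p = 0.226) and the receptor gene Acvrl1 had 0.12 (limma adjusted p = 0.261).

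Markers of other tissues that can be taken with the atria were followed in the same hearts, and their part in the levels of the atrial markers was not tested. None of 5 tested fat genes, 2 lung genes and 2 thymus genes passed between Cav1KO and WT (limma). Of the 5 tested fat genes 4 were highest in WT replicate 3, and Retn was not. After quantile normalisation that heart was also highest for 7 of 8 atrial markers. The median log2 difference of the tested fat genes was -1.58. Ucp1, the uncoupling protein of brown fat, gave 20.3, 19.9 and 107 in Cav1KO hearts and 81.3, 321 and 803 in WT hearts. The summed intensity of the 6 fat genes with a probe set ran from 941 to 1369 in Cav1KO hearts and from 1250 to 3411 in WT hearts. WT replicate 2, second in fat genes, was low for the atrial markers. The lung gene Scgb1a1, a secretory protein of airway cells, gave 512 in WT replicate 3 and 9.20 to 12.2 in the other 5 hearts. The summed intensity of the 6 lung genes was 226 to 246 in Cav1KO hearts and 243 to 781 in WT hearts. The 781 was that of WT replicate 3, and Scgb1a1 alone made up 512 of it. Sftpc, a surfactant protein of the lung, stood at 23.2 to 29.8 in Cav1KO hearts and at 29.1 to 39.2 in WT hearts. Both genes were chosen after their values were seen. The 5 thymus genes summed to 164 to 181 in Cav1KO hearts and 171 to 216 in WT hearts.

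Pacemaker and vessel genes were described for the same reason. Of 5 tested pacemaker and conduction genes 0 passed (limma), and all 5 had a positive difference, with a median of 0.098, among them Tbx18 at 0.29 and Cacna1g at 0.24 on the log2 scale. Their summed intensity, over 6 genes with a probe set, was 389 to 440 in Cav1KO hearts and 353 to 371 in WT hearts, opposite in direction to the atrial markers. Of 6 tested genes of arterial endothelium, Sema3g rose by 0.65 (SE 0.080, limma adjusted p = 0.00456) and 5 did not pass. Of 6 smooth muscle genes none passed (limma), and the median was -0.11. The summed intensity of the arterial list was 1370 to 1518 in Cav1KO hearts and 1157 to 1301 in WT hearts, and that of the smooth muscle list 5586 to 5816 in Cav1KO hearts and 5186 to 5886 in WT hearts.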

How the data were processed

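Heart RNA of 6 samples was measured, 3 Cav1KO and 3 WT, grouped by their titles. The Cav1KO replicates were numbered in accession order, which only names them. Trizol was used for extraction and 2 ug of total RNA went into each labelling with biotin, per the labels' protocols. The submitters' processing notes name GCOS 1.4 without saying what it did. The authors deposited 1 intensity per probe set and array on a linear scale, and the method of summary, background correction and scaling is not stated in those sources.

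Trimmed means (2% at each end) differed by 8.42% between arrays, above a limit of 5%, so intensities were quantile normalised without the 64 control probe sets (limma 3.58.1, R 4.3.3). Values were taken as log2(intensity + 16), and the 22519 probe sets in the upper 50% by mean were fitted by group alone (lmFit, then eBayes with trend). P-values were adjusted after Benjamini and Hochberg over all of them. Symbols came from the platform annotation of 2016, in which 34945 probe sets had 1 symbol, 932 had several and 9160 none. The brightest probe set by mean stood for a gene in lists, medians and correlations. The fit was also run on simulated data, with noise drawn independently for each probe set and heart. Variation that genes share within a heart was absent there, so the simulation cannot speak for it. The number of arrays limits the precision, and no scan date or batch was given. No 2 arrays shared more than 2252 identical values.

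The members, lists and tests were chosen with earlier results of these data known. Genes named are all members, the called members and up to 4 others of each list, and the genes most like the markers, besides a few that the text says were chosen after their values were seen. Alternatives were the scaling, pseudocount, filter, variance model, rule for probe sets of a gene, and leaving out each heart. No paired analysis was possible because the titles of the Cav1KO samples carry no replicate number that WT samples share.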

Additional observations from a re-analysis of the deposited data

How the results depend on the processing

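No atrial marker probe set passed under the 8 alternatives of scaling, pseudocount, filter and variance model. Leaving out 1 heart at a time gave 0 to 2 passing, 2 of Kcnj3 without Cav1KO replicate 3 and 1 of Sln without WT replicate 2. The median log2 difference of the marker genes ran from -0.20 to -0.049 when hearts were left out and from -0.14 to -0.083 otherwise, negative throughout. The range over the hearts of the median deviation was 0.34, and ran from 0.27 to 0.35 when hearts were left out and from 0.29 to 0.34 otherwise. The number of all probe sets called, 714, was 411 with no trend in the variance, 1171 with array weights and 189 to 749 with 1 heart left out (189 without Cav1KO replicate 1, 227 without Cav1KO replicate 2, 299 without WT replicate 3 and 470 without WT replicate 1). The causes of these changes were not tested. The difference of Dkk3 turned positive with other scalings, to 0.017 (1417312_at) and 0.045 (1448669_at) with each array centred on its median and 0.026 (1448669_at) as deposited. With 1 heart left out it ran from -0.15 to 0.024 at 1417312_at and from -0.15 to 0.055 at 1448669_at, and that of Kcnj5 at 1421762_at from -0.0030 to 0.12. All 28 pairs of marker genes stayed positive in correlation under the scalings, pseudocounts and probe set rules tried, and all 36 pairs did with no filter, a count added after seeing the data. No paired analysis was possible because the titles of the Cav1KO samples carry no replicate number shared with WT samples.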

Other observations

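Among 8696 tested genes other than the markers whose range over the hearts was at least 50% of that of the markers' median deviation, 15 had a Pearson correlation with it of 0.95 or more over the 6 hearts. With 6 points and this many genes such values are given as a description. The 5 highest were Tmem151b (r = 0.99), Stard10 (r = 0.98), Ppp6r3 (r = 0.97), Lrfn1 (r = 0.97) and Gm16499 (r = 0.97). Stard10 was also on the list of further atrial genes. Tmem151b stood at 53.7 to 65.6 in Cav1KO hearts and 56.7 to 68.6 in WT hearts, and Ppp6r3 at 319 to 338 in Cav1KO hearts and 318 to 357 in WT hearts.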
